A study of Drosophila melanogaster with 21 samples.

Results

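The genes described are 10 transcription factors that mark positions along the proximal-distal axis of fly appendages: Dll, al, dac, B-H1, B-H2, rn, nub, pdm2, hth and tsh. The rule that picks them uses their names and no measured value, but they were chosen with earlier results of these data known. Counts of members called are therefore a description and no independent test. They come from the 17558 genes of the counts table, in which all 10 were found and all 10 passed the filter on low counts. In legs and antennae, concentric domains of hth and tsh (proximal), dac (medial) and Dll with al, B-H1 and B-H2 (distal) divide the disc from its rim to its centre. In the wing disc, the larval tissue that forms the wing and much of the thorax, nub, pdm2 and rn are known from the pouch that becomes the wing blade, hth and tsh from the hinge and body wall around it, and Dll from the pouch near the future wing margin.

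The libraries are poly-A RNA of wing imaginal discs from male larvae of the last instar, reared at 25 °C, that lacked a part of the MSL complex, which binds the male X and raises its transcription. Mutant discs were labelled null for roX1 and roX2 together (roX1.SMC17A with roX2delta, 3 libraries), for msl-2 (allele msl2_227, 4 libraries), for msl-1 (allele msl-1.L60, 3 libraries) or for mle (allele mle9, 3 libraries). Control discs carried one copy of the msl-2 allele (3 libraries), the msl-1 allele (3 libraries) or the mle allele (2 libraries) over CyO-GFP, a rearranged second chromosome that carries a GFP marker. Each gene was tested through a single allele, and the labels do not say whether replicates came from separate cultures or how many discs each library holds, so p values measure the spread between these libraries. The roX1 roX2 mutants have no heterozygous group of their own and were set against the mean of the 3 heterozygous group means, libraries that the other comparisons use too. Heterozygous larvae carry CyO-GFP and mutant larvae do not, so the balancer and the mutation cannot be told apart for any member. Dll, al, dac, tsh, nub and pdm2 lie on the second chromosome itself. The discs were bulk samples, in which fewer cells of a type and less RNA per cell cannot be told apart.

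The libraries held between 830905 and 4131600 counts, with a median of 2458046. Replicate 2 of the msl-1 heterozygous discs stood apart: it had the lowest total, mitochondrial genes held 6.17% of its counts, and its correlation with the other msl-1 heterozygous libraries had a median of 0.552. Each test was therefore run in all 21 libraries (11420 genes) and again in the 20 libraries without it (10367 genes), and both values are given. Among the mutated genes, roX2 had no count in roX1 roX2 mutants and at most 3.66 CPM (counts scaled to a library size of 1e+06) in the other mutants, against 271 to 376 CPM in msl-2 and mle heterozygous discs and 13.8 to 164 CPM in msl-1 heterozygous discs. roX1 was at 37.3 to 70.1 CPM in roX1 roX2 mutants, 1573 to 1921 CPM in msl-2, 111.5 to 140 CPM in msl-1 and 61.6 to 129 CPM in mle mutants. In heterozygous discs roX1 was at 2606 to 2756 CPM (msl-2), 522 to 3408 CPM (msl-1) and 3667 to 3724 CPM (mle). The msl-2 transcript was at 50.9 to 60.1 CPM in its mutants, against 93.9 to 111 CPM in heterozygous discs. The transcripts of msl-1 and mle were at 114 to 153 CPM and at 216 to 241 CPM in their own mutants, against 37.7 to 114 CPM and 146 CPM in the heterozygous discs, so for these alleles the level of the gene itself does not check the label. Wing disc markers (vg, sd, Antp and bi) were present in every library, and their summed level was 781 to 1217 CPM in mutant libraries and 1202 to 1683 CPM in heterozygous libraries other than msl-1 replicate 2 (636 CPM). In msl-1 discs the sum was 847 to 895 CPM in mutants, against 1485 and 1683 CPM in heterozygous replicates 1 and 3. There 1 of the 4 was called lower in 21 libraries and 4 in 20, beside 25.4% and 12.7% of all tested genes. In mle mutants edgeR called none of the 4 in 21 libraries (1 had an unadjusted p under 0.05) and 2 lower in 20. Of all tested genes 1.98% and 8.95% were called lower there. Ubx, which marks haltere and posterior leg discs, had medians of 15.9 to 24.8 CPM in mutant groups and 12.8 to 26.1 CPM in heterozygous groups.

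Corrected for exon length, the proximal factor hth was the most abundant member in every group, at 103 to 136 CPM per kb in mutant groups and 162 to 215 CPM per kb in heterozygous groups. Next came nub and tsh. nub, a pouch factor, was at 28.1 to 63.3 CPM per kb in mutant and 48.6 to 62.8 CPM per kb in heterozygous groups, and tsh at 36.9 to 46.0 and 36.9 to 60.1 CPM per kb. tsh stood above nub in msl-1 mutants, mle mutants and mle heterozygous discs, and below it in the other groups. Dll was at 2.46 to 31.4 CPM per kb in mutant groups and 34.4 to 44.3 CPM per kb in heterozygous groups. dac, B-H1 and B-H2 were the least abundant, all below 7 CPM per kb in every group. The 2 Bar genes are paralogs that lie 73.3 kb apart on the X, and nub and pdm2 are paralogs 29.0 kb apart on 2L, so counts of these pairs are uncertain where reads could be shared, as are those of tsh and its paralog tio. hth overlaps an exon of an antisense RNA that had 420 counts over all libraries, against 89959 counts for hth itself.

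**Figure D1:**
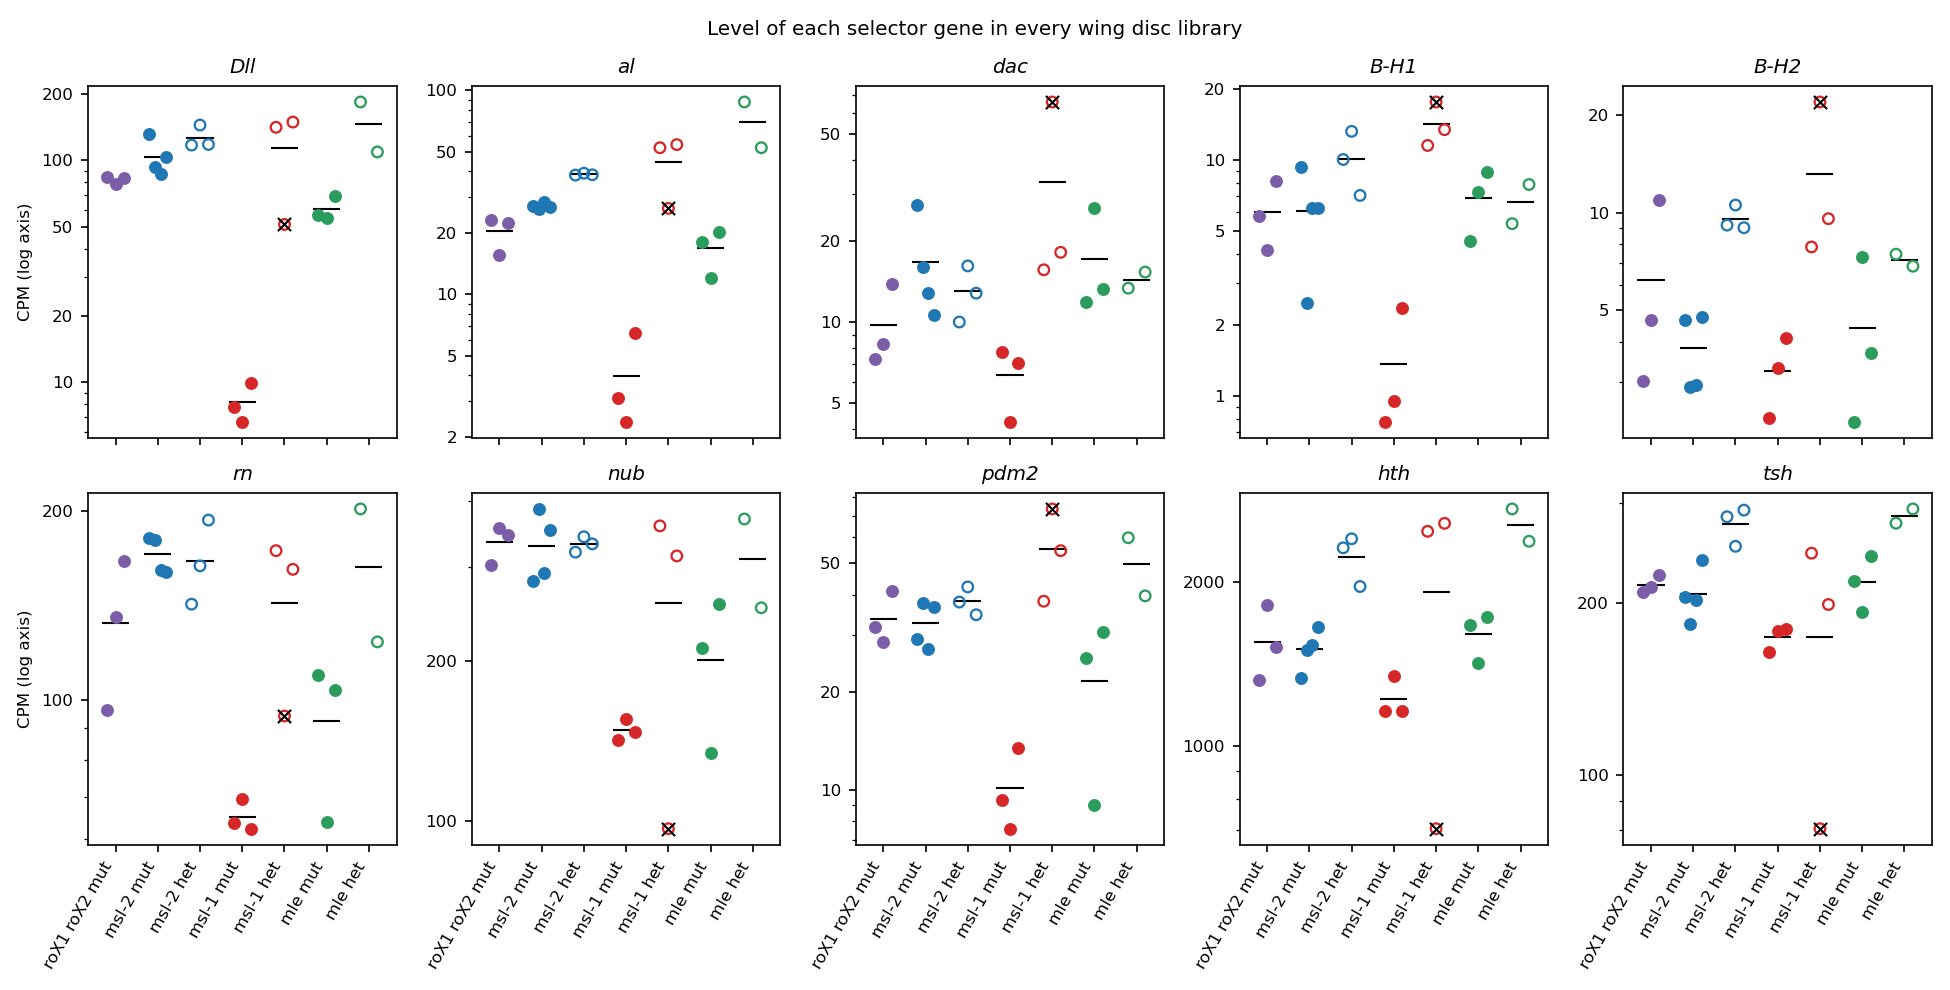
Level of each selector gene in every library, in CPM on a log axis, by group, with mutant groups (filled) left of the heterozygous group of their stock (open). Black bars are group means and crosses mark msl-1 heterozygous replicate 2. Dll in the 3 msl-1 mutant libraries lies between 6.65 and 9.98 CPM, below every other library.

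In msl-1 mutants Dll and al had the lowest fitted changes of the members. B-H1 came next, at -3.32 ± 0.58 in 21 libraries, and members were not tested against each other. Dll, the homeodomain factor that specifies distal legs and antennae (2R, 24814822 to 24835667, dm6), was at 7.76, 6.65 and 9.98 CPM in the 3 mutant libraries, against 141, 51.5 and 149 CPM in msl-1 heterozygous replicates 1, 2 and 3. The groups did not overlap, and the lowest heterozygous value was that of replicate 2. Dll fell by 3.81 ± 0.36 on the log2 scale (SE, adjusted p = 5.8e-07, edgeR) in 21 libraries, to 7.13% of the heterozygous level, and by 4.21 ± 0.24 (adjusted p = 2.1e-11) in 20 libraries, to 5.40%. In the order of the tested genes from the lowest change upward, Dll stood at place 261 of 11420 in 21 libraries and at place 33 of 10367 in 20.

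The homeodomain factor al, which acts at the tips of leg and antenna (2L, 378112 to 387439), followed Dll closely. Its level was 3.1, 2.37 and 6.46 CPM in msl-1 mutants, against 52.3, 26.4 and 54.1 CPM in msl-1 heterozygous discs. Again no mutant library reached a heterozygous one. The change was -3.48 ± 0.36 (adjusted p = 1.6e-06) in 21 libraries and -3.79 ± 0.31 (adjusted p = 1.7e-08) in 20.

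The Bar genes, homeodomain factors of the distal leg and of sensory organs, were weakly expressed. B-H1 (X, 17397478 to 17403278) had 1, 2 and 4 counts in the msl-1 mutant libraries, or 0.776, 0.949 and 2.35 CPM, against 11.5, 17.6 and 13.4 CPM in heterozygous discs. The ratio of mutant to heterozygous discs was 0.0984 with an exact 95% interval of 0.0383 to 0.213 that covers counting error only, and 0.11 (0.042 to 0.243) without replicate 2. The fitted change of B-H1 was -3.32 ± 0.58 (adjusted p = 5.0e-04) in 21 libraries and -3.19 ± 0.58 (adjusted p = 3.6e-04) in 20. B-H2 (X, 17314581 to 17324175) was at 2.33, 3.32 and 4.11 CPM in mutants, against 7.84, 22.0 and 9.58 CPM in heterozygous discs, with replicate 2 the highest. B-H2 passed in 21 libraries (log2 -1.97 ± 0.57, adjusted p = 0.0147) and missed in 20 (log2 -1.44 ± 0.55, adjusted p = 0.0599). Its call in 21 libraries was also lost without msl-1 mutant replicate 1 or 2 (highest adjusted p = 0.0750). The median X gene changed by -0.30 in 21 libraries and -0.44 in 20, less than either Bar gene.

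dac, a nuclear factor of the medial leg (2L, 16466512 to 16485998), was at 7.76, 4.27 and 7.04 CPM in msl-1 mutants, against 15.7, 65.9 and 18.2 CPM in msl-1 heterozygous discs. Its size rested on replicate 2, the library with the highest dac level of all: the change was -2.39 ± 0.53 (adjusted p = 0.0033) with it and -1.49 ± 0.45 (adjusted p = 0.0184) without it. In the 20 libraries, leaving out msl-1 mutant replicate 2 or msl-1 heterozygous replicate 3 also ended the call, with an adjusted p of up to 0.143.

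Pouch factors fell less than Dll and al. The POU factor pdm2 (2L, 12657165 to 12686306) was at 9.31, 7.60 and 13.5 CPM in msl-1 mutants, against 38.2, 73.5 and 54.6 CPM in heterozygous discs, a change of -2.45 ± 0.36 (adjusted p = 8.7e-05) in 21 libraries and -2.26 ± 0.36 (adjusted p = 9.7e-05) in 20. Its paralog nub (2L, 12587625 to 12628135) was at 142, 156 and 147 CPM in mutants, against 359, 96.7 and 315 CPM in heterozygous discs. nub overlapped only because of replicate 2, and it passed in 20 libraries (log2 -1.23 ± 0.20, adjusted p = 1.1e-04) but not in 21 (log2 -0.79 ± 0.35, adjusted p = 0.0758). rn, a zinc finger factor of the distal pouch and tarsus (3R, 7272617 to 7309629), was at 63.6, 69.3 and 62.2 CPM in mutants, against 173, 94.2 and 162 CPM in heterozygous discs. It fell by 1.14 ± 0.28 (adjusted p = 0.0065) in 21 libraries and by 1.41 ± 0.23 (adjusted p = 1.0e-04) in 20.

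By fitted change the proximal factors tsh and hth changed the least in msl-1 mutants, an order that was not tested. In 20 libraries hth (log2 -1.10 ± 0.17) lay close to the pouch factor nub (-1.23 ± 0.20). hth, the TALE homeodomain factor of hinge and body wall (3R, 10507561 to 10639568), was at 1160, 1341 and 1158 CPM in mutants, against 2476, 704 and 2561 CPM in heterozygous discs. It passed in 20 libraries, where it fell by 1.1 ± 0.17 (adjusted p = 5.4e-05), and not in 21 (log2 -0.65 ± 0.39, adjusted p = 0.177). tsh, a zinc finger factor of the hinge and trunk (2L, 21828593 to 21837011), was at 164, 179 and 180 CPM in mutants, against 245, 80.4 and 199 CPM in heterozygous discs. The change of tsh did not pass in 21 libraries (log2 -0.00 ± 0.28, adjusted p = 0.995), where its sign turned to 0.014 with scaling on all genes, or in 20 (log2 -0.39 ± 0.14, adjusted p = 0.0537).

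Over the members, 7 of 10 were called lower in msl-1 mutants in 21 libraries and 8 of 10 in 20, where 25.4% and 12.7% of all tested genes were called lower. None was called higher, where 12.8% and 10.4% of all tested genes were. The median change of the members was -2.18 in 21 libraries and -1.47 in 20, beside -0.17 and -0.12 over all tested genes. All mutant libraries lay below all heterozygous ones for 7 members in 21 libraries and for 10 in 20, against 18.6% and 26.8% of all tested genes.

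In mle mutants al had the lowest fitted change of the 10 members. It was at 18.1, 12.0 and 20.3 CPM in mle mutants, against 87.6 and 52.3 CPM in mle heterozygous discs, with no overlap. al fell by 2.06 ± 0.31 (adjusted p = 4.7e-04) in 21 libraries and by 2.02 ± 0.24 (adjusted p = 6.1e-06) in 20, to 24.1% and 24.6% of the heterozygous level. Dll was at 56.6, 55.3 and 68.9 CPM in mle mutants, against 183 and 109 CPM in heterozygous discs. It fell by 1.28 ± 0.32 (adjusted p = 0.0268) in 21 libraries and by 1.24 ± 0.19 (adjusted p = 9.0e-05) in 20. In the 21 libraries the Dll call was lost without mle heterozygous replicate 1 or without mle mutant replicate 1 or 2, and its smallest size over the omissions was -0.86 (highest adjusted p = 0.645).

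The other members of the mle comparison were separated less clearly. pdm2 was at 25.5, 9.00 and 30.6 CPM in mle mutants, against 59.9 and 39.6 CPM in heterozygous discs, and it passed in 20 libraries (log2 -1.17 ± 0.31, adjusted p = 0.0143) but not in 21 (log2 -1.20 ± 0.35, adjusted p = 0.0675). rn was at 110, 63.8 and 104 CPM in mle mutants, against 202 and 124 CPM in heterozygous discs, and nub was at 211, 134 and 256 CPM, against 369 and 252 CPM. Replicate 2 of the mle mutants was the lowest of the 3 in all pouch and proximal factors and in Dll and al, and the highest in dac and B-H2. In the same library eye-antenna markers summed to 215 CPM, leg disc markers to 148 CPM and Ubx was at 59.98 CPM, against 65.6 and 73.7, 102 and 87.4, and 20.36 and 16.96 CPM in mle mutant replicates 1 and 3. Their part in the result was not tested. In 20 libraries rn fell by 0.79 ± 0.22 (adjusted p = 0.0183), nub by 0.60 ± 0.20 (adjusted p = 0.0494) and hth by 0.64 ± 0.17 (adjusted p = 0.0125), and none of the 3 passed in 21. Without mle heterozygous replicate 1 the 20-library calls of rn, hth and pdm2 were lost, and without mle mutant replicate 2 those of rn and hth. nub was called in 6 of the 20 fits that left out a library (adjusted p of up to 0.613).

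dac and the Bar genes were not called in mle mutants. dac was at 11.9, 26.6 and 13.3 CPM in mle mutants, against 13.4 and 15.4 CPM in heterozygous discs (log2 0.27 ± 0.53, adjusted p = 0.984 in 21 libraries). B-H1 was at 4.52, 7.28 and 8.85 CPM, against 5.36 and 7.86 CPM (log2 0.07 ± 0.54, adjusted p = 0.995), and its sign turned when mle heterozygous replicate 1 was left out (-0.18). B-H2 changed by -0.67 ± 0.59 (adjusted p = 0.815), beside a median X gene at -0.59. In all, 2 members were called lower in 21 libraries and 6 in 20, where 1.98% and 8.95% of all tested genes were called lower, and the members' medians were -0.67 and -0.64, beside -0.08 and -0.05 over all tested genes. All mutant libraries lay below both heterozygous ones for 6 members, against 22.5% of all tested genes in 21 libraries and 23.6% in 20.

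In roX1 roX2 mutants al was the single member called in 21 libraries. It was at 23.2, 15.5 and 22.4 CPM, below each of the 8 heterozygous libraries, which ran between 26.4 and 87.6 CPM with the lowest in msl-1 heterozygous replicate 2. al fell by 1.26 ± 0.25 (adjusted p = 0.0030) in 21 libraries and by 1.33 ± 0.20 (adjusted p = 4.9e-05) in 20. Dll was at 84.1, 78.2 and 83.5 CPM in roX1 roX2 mutants, below all heterozygous libraries except msl-1 replicate 2. In 20 libraries Dll fell by 0.74 ± 0.15 (adjusted p = 0.0013) and hth, at 1318, 1814 and 1519 CPM in the mutants, fell by 0.63 ± 0.13 (adjusted p = 0.0023), and neither passed in 21 (adjusted p = 0.170 and 0.507). nub was at 302, 356 and 344 CPM, inside the heterozygous range (log2 0.17 ± 0.29, adjusted p = 0.838), with a sign that turned in 2 of the 20-library fits without a library. Here 1.93% of all tested genes were called lower in 21 libraries and 7.55% in 20, while 1 and 3 of the 10 members were. All 3 mutant libraries lay below every heterozygous one for 1 member in 21 libraries and for 3 in 20, against 2.08% and 5.67% of all tested genes. The al call depended on the control: against msl-2 heterozygous discs alone its change in 21 libraries was -0.91 ± 0.28 (adjusted p = 0.0754), and against mle heterozygous discs alone -1.77 ± 0.31 (adjusted p = 0.0018).

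In msl-2 mutants no member passed in 21 libraries, in edgeR or in DESeq2, where edgeR called 0.648% of all tested genes lower, and 1 had an unadjusted p under 0.05. That one was B-H2, at 4.66, 2.89, 2.93 and 4.77 CPM in msl-2 mutants, against 9.16, 10.6 and 8.99 CPM in msl-2 heterozygous discs. The groups did not overlap, and the change was -1.31 ± 0.50 (adjusted p = 0.251) in 21 libraries and -1.28 ± 0.42 (adjusted p = 0.0528) in 20, beside a median X gene at -0.34 and -0.33. hth was at 1330, 1501, 1529 and 1653 CPM in msl-2 mutants, against 2309, 2399 and 1961 CPM in heterozygous discs, and tsh at 205, 184, 202 and 238 CPM, against 283, 252 and 291 CPM. Every mutant library was below every heterozygous one for both, and in 20 libraries hth fell by 0.53 ± 0.14 (adjusted p = 0.0201) and tsh by 0.38 ± 0.12 (adjusted p = 0.0449).

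Those proximal calls were fragile: hth was called in 17 and tsh in 10 of the 20 fits without a further library, with adjusted p of up to 0.0906 and 0.153, and hth was lost without msl-2 heterozygous replicate 1 or 2 or msl-2 mutant replicate 1. al was at 27.2, 26.1, 28.2 and 26.8 CPM in msl-2 mutants, against 38.4, 39.2 and 38.5 CPM in heterozygous discs, a narrow spread without overlap that did not pass (log2 -0.52 ± 0.26, adjusted p = 0.403 in 21 libraries, and -0.48 ± 0.20, adjusted p = 0.125 in 20). Dll was at 132, 93.5, 87.1 and 103 CPM in msl-2 mutants, against 117, 144 and 118 CPM in heterozygous discs. The groups overlapped through msl-2 mutant replicate 1 alone, the library with the highest Dll and dac of the 4, in which leg disc markers summed to 175 CPM, against 64.5 to 81.3 CPM in the other mutant libraries. Their part in this value was not tested. Without it the change of Dll was -0.42 ± 0.29 (adjusted p = 0.530) in the 21-library fit and -0.37 ± 0.16 (adjusted p = 0.135) in the 20-library fit, against -0.28 ± 0.27 (adjusted p = 0.630) and -0.25 ± 0.16 (adjusted p = 0.284) with it. The pouch factors nub (log2 -0.01 ± 0.32), rn (0.04 ± 0.25) and pdm2 (-0.23 ± 0.29) were within the spread of the libraries, and the signs of nub and rn turned under some alternatives. The members called lower in 20 libraries were 2 of 10, where 7.59% of all tested genes were called lower. All mutant libraries lay below all heterozygous ones for 4 members, al, B-H2, hth and tsh, against 17.1% of all tested genes in 21 libraries and 18.8% in 20.

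**Figure D2:**
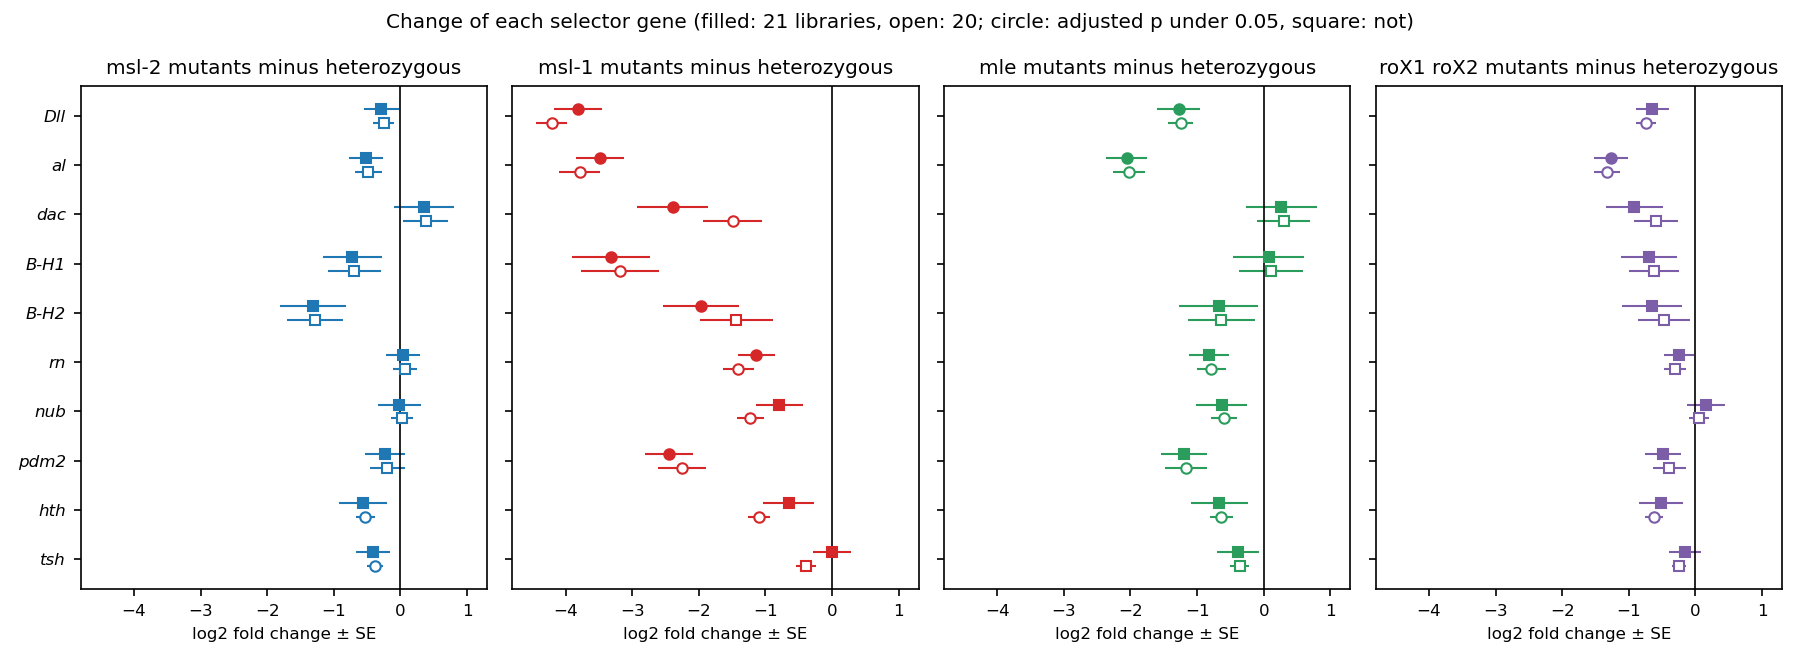
Change of each selector gene in the 4 mutants as log2 fold change of mutant over heterozygous discs, with the SE as bars. Filled marks are 21 libraries, open marks 20 libraries, circles an adjusted p under 0.05 and squares not. Dll and al lie furthest left in msl-1 mutants, at -3.81 and -3.48 in 21 libraries, and at -0.28 and -0.52 in msl-2 mutants.

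The stocks were then compared directly by testing the difference between changes, which for these stocks share no control library. The change in msl-1 mutants was more negative than in msl-2 mutants for 6 members in 21 libraries and 7 in 20, where 18.8% and 7.83% of all tested genes had a lower change in msl-1 mutants. The difference was -3.53 ± 0.45 for Dll (adjusted p = 5.9e-04) and -2.96 ± 0.45 for al (adjusted p = 0.0021). It was -2.74 ± 0.70 for dac (adjusted p = 0.0160), -2.59 ± 0.74 for B-H1 (adjusted p = 0.0212), -2.22 ± 0.47 for pdm2 (adjusted p = 0.0084) and -1.17 ± 0.38 for rn (adjusted p = 0.0310). nub joined them in 20 libraries at -1.25 ± 0.26 (adjusted p = 0.0050). For the proximal pair the difference did not pass: it was -0.09 ± 0.53 for hth and 0.41 ± 0.39 for tsh in 21 libraries, and -0.57 ± 0.22 (adjusted p = 0.0770) and -0.02 ± 0.19 (adjusted p = 0.965) in 20.

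Between msl-1 and mle mutants only Dll among the members differed past the threshold, where 0.114% of all tested genes had a lower change in msl-1 mutants in 21 libraries and 0.280% in 20. The difference was -2.53 ± 0.49 (adjusted p = 0.0290) in 21 libraries and -2.97 ± 0.31 (adjusted p = 2.2e-05) in 20. B-H1 and al came close in 20 libraries, at -3.30 ± 0.77 (adjusted p = 0.0513) and -1.77 ± 0.41 (adjusted p = 0.0511). Between mle and msl-2 mutants no member differed in 21 libraries (0.0263% of tested genes were called lower), 4 had an unadjusted p under 0.05, and DESeq2 called 1. In 20 libraries, where 0.125% were called lower, al differed by -1.54 ± 0.32 (adjusted p = 0.0394), a call kept in 9 of the 20 fits that left out a further library.

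Ratios between 2 members within a library do not depend on library scaling, and are given here as differences of log2 CPM (prior count of 2) with no test. Dll relative to nub, a distal factor against a pouch factor, was at -4.07 ± 0.31 (SD, n = 3) in msl-1 mutants, against -1.1 ± 0.22 (SD, n = 3) in msl-1 heterozygous discs, and the msl-1 mutant libraries were below all other libraries. The same ratio was at -2.01 ± 0.17 (SD, n = 3) in roX1 roX2 mutants, at -1.66 ± 0.40 (SD, n = 4) against -1.39 ± 0.13 (SD, n = 3) in msl-2 mutant and heterozygous discs, and at -1.68 ± 0.36 (SD, n = 3) against -1.1 ± 0.13 (SD, n = 2) in mle mutant and heterozygous discs. al relative to nub was lower in the mutants of all 3 stocks with their own control: -5.04 ± 0.65 against -2.37 ± 0.48 in msl-1, -3.50 ± 0.10 against -2.16 ± 0.13 in mle, and -3.55 ± 0.26 against -3.07 ± 0.03 in msl-2 discs, with no overlap in any of the 3.

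The balance of pouch and hinge factors took another course. nub relative to hth was at -2.20 ± 0.18 (SD, n = 4) in msl-2 mutants, against -2.74 ± 0.16 (SD, n = 3) in msl-2 heterozygous discs, so nub was higher relative to hth in all 4 mutant libraries than in any of the 3 controls. roX1 roX2 mutants were at -2.20 ± 0.13 (SD, n = 3), above all 8 heterozygous libraries. In msl-1 discs the ratio was -3.03 ± 0.06 (SD, n = 3) in mutants against -2.89 ± 0.12 (SD, n = 3), and in mle discs -3.04 ± 0.33 (SD, n = 3) in mutants against -3.06 ± 0.25 (SD, n = 2), and in both stocks the groups overlapped. tsh relative to hth was at -2.80 ± 0.11 in msl-1 mutants, against -3.38 ± 0.28 in msl-1 heterozygous discs, with every mutant library higher. The same held in mle discs, at -2.88 ± 0.05 in mutants against -3.16 ± 0.20, while in msl-2 discs the groups overlapped. pdm2 relative to its neighbour nub was at -3.80 ± 0.43 in msl-1 mutants, against -2.86 ± 0.49 in the 2 msl-1 heterozygous libraries other than replicate 2. It was at -3.27 ± 0.44 in mle mutants, against -2.62 ± 0.02 in mle heterozygous discs. In msl-2 discs it was at -3.30 ± 0.08 in mutants, against -3.09 ± 0.12 in heterozygous discs, also with every mutant library lower.

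**Figure D3:**
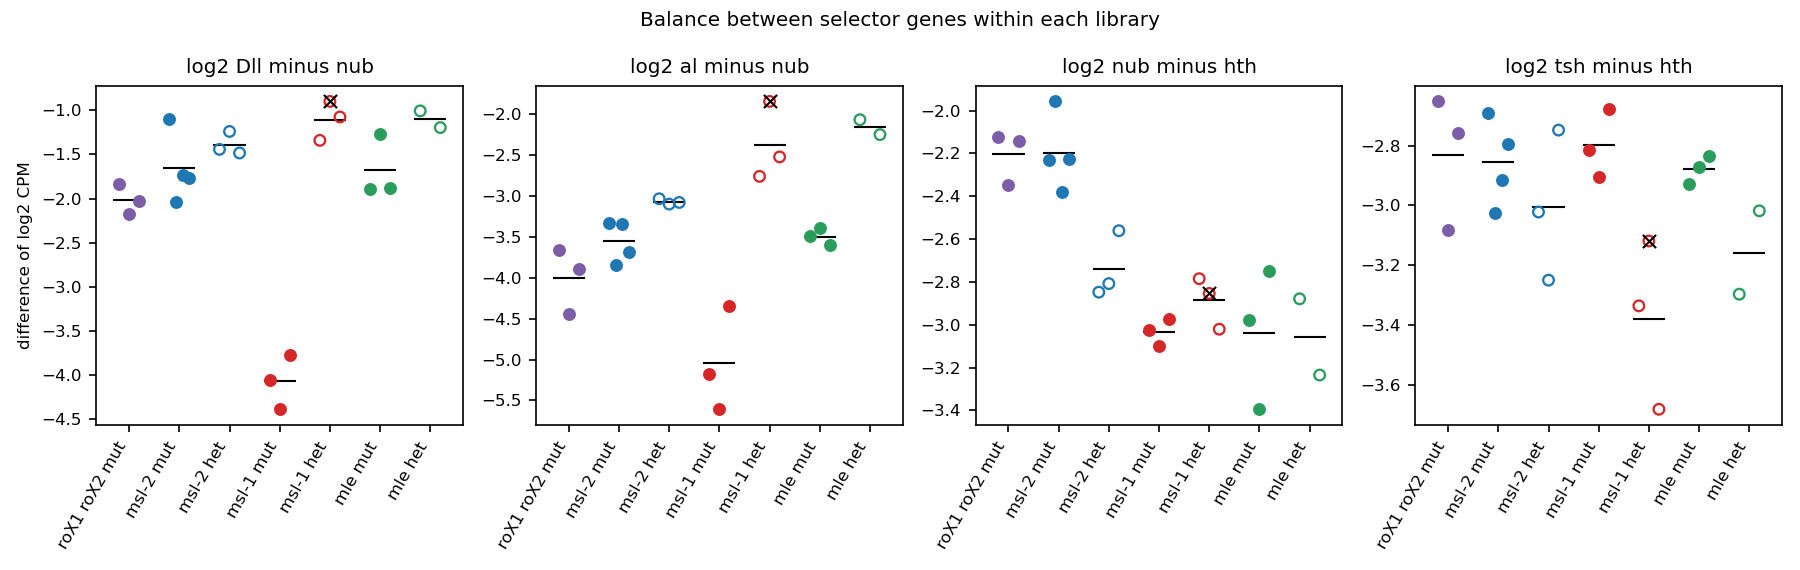
Differences of log2 CPM between pairs of selector genes within each library, mutant groups (filled) left of the heterozygous group of their stock (open), bars at group means, crosses on msl-1 heterozygous replicate 2. Dll minus nub is near -4 in msl-1 mutants only, and nub minus hth is higher in msl-2 and roX1 roX2 mutants (mean -2.20 in each) than in the heterozygous groups.

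Between heterozygous groups the single call was dac between msl-1 and msl-2 heterozygous discs in 21 libraries (log2 1.33 ± 0.48, adjusted p = 0.0330), where 42.4% of all tested genes were called. The difference was 0.43 ± 0.41 (adjusted p = 0.473) without msl-1 replicate 2, and the call was also lost without msl-2 heterozygous replicate 1, 2 or 4. In those 20 libraries 10.4% of tested genes were called between these groups, no member passed in edgeR and 1 had an unadjusted p under 0.05. No member was called by edgeR between msl-1 and mle (0.0876% and 0.203% of tested genes) or between mle and msl-2 heterozygous discs (0.289% and 0.772%) in 21 and 20 libraries, and at most 3 had an unadjusted p under 0.05. al was nonetheless higher in both mle than in all msl-2 heterozygous libraries (log2 0.85 ± 0.30, adjusted p = 0.646 in 21 libraries, and 0.86 ± 0.23, adjusted p = 0.0925 in 20). tsh was lower in all msl-1 than in all msl-2 heterozygous libraries (log2 -0.66 ± 0.28, adjusted p = 0.0654 in 21, and -0.26 ± 0.14, adjusted p = 0.214 in 20). Mean Dll was 114 ± 54.2 CPM (SD, n = 3) in msl-1, 127 ± 15.4 (SD, n = 3) in msl-2 and 146 ± 52.4 (SD, n = 2) in mle heterozygous discs. The means of al were 44.3 ± 15.5, 38.7 ± 0.45 and 69.9 ± 25.0 CPM in the same order. Over the 7 groups Dll was ordered by mean as mle, msl-2 and msl-1 heterozygous, then msl-2, roX1 roX2, mle and msl-1 mutants. Neighbours in that order overlapped down to msl-2 mutants and were apart from there on. Replicate 2 of the msl-1 heterozygous discs, at 51.5 CPM, lay below all roX1 roX2 and mle mutant libraries. Without it the msl-1 heterozygous mean was 145 CPM, above that of msl-2 heterozygous discs. For al, roX1 roX2 and mle mutants overlapped, and msl-1 mutants were apart from all other groups.

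In msl-1 discs other genes of the wing axis were also called. Of 20 further genes of pouch, hinge and body wall identity, 10 were called lower and 1 higher in 21 libraries, and 19 lower and 1 higher in 20, where 25.4% and 12.7% of all tested genes were called lower. The list's median change was -0.64 and -0.89 in 21 and 20 libraries, beside -0.17 and -0.12 over all tested genes. The lowest values among genes named by smallest adjusted p were Doc2, a T-box factor of the hinge and body wall (3.81 ± 0.93 CPM in msl-1 mutants, against 32.5 ± 0.84 in the 2 heterozygous libraries of the 20-library fit, log2 -3.15 ± 0.32, adjusted p = 3.1e-07), and dve, a homeodomain factor of the pouch (13.6 ± 0.97, against 78.1 ± 3.34 CPM, log2 -2.56 ± 0.28, adjusted p = 9.0e-07). Doc1 fell by 1.98 ± 0.30 (adjusted p = 3.9e-05). The gene called higher was vn, a ligand of the EGF receptor known from the body wall, at 272 ± 10.2 CPM in mutants, against 130 ± 35.2 CPM.

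In mle mutants 3 of the 20 wing genes were called lower in 21 libraries and 8 in 20 (1.98% and 8.95% of all tested genes), with dve at -1.61 ± 0.25 (adjusted p = 1.1e-04) and Doc2 at -1.44 ± 0.25 (adjusted p = 3.1e-04) in 20 libraries. exd, an X-linked homeodomain cofactor that needs hth to enter the nucleus, fell in all 4 mutants in 20 libraries, with changes between -0.65 and -0.95, beside median X genes between -0.33 and -0.57. In roX1 roX2 mutants 1 was lower in 21 libraries, and 4 lower and 1 higher in 20 (1.93% and 7.55% of all tested genes were lower), led by exd (-0.77 ± 0.14, adjusted p = 5.3e-04) and noc (-0.54 ± 0.11, adjusted p = 0.0021). In msl-2 mutants edgeR called none in 21 libraries, with 10 at an unadjusted p under 0.05, and 3 lower in 20 (0.648% and 7.59% of all tested genes): exd (-0.75 ± 0.15, adjusted p = 0.0024), Doc3 (-0.70 ± 0.20, adjusted p = 0.0295) and noc (-0.40 ± 0.12, adjusted p = 0.0373).

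Of 19 further genes of the leg and antenna axis, 9 were called lower in msl-1 mutants in 21 libraries and 6 of the 18 still tested in 20, beside 25.4% and 12.7% of all tested genes. ss, the spineless factor of distal antenna and tarsus, fell by 1.48 ± 0.27 (adjusted p = 3.0e-04 in 20 libraries), bowl, a zinc finger factor of leg joints and tarsus, by 1.22 ± 0.20 (adjusted p = 1.1e-04) and bi, a T-box factor also active in the pouch, by 1.17 ± 0.20 (adjusted p = 1.4e-04). sob, a zinc finger factor related to bowl, fell by 0.93 ± 0.16 (adjusted p = 7.9e-04) in msl-2 mutants in 20 libraries. ss was called lower in each of the 4 mutants in 20 libraries, at -0.79 ± 0.20 in msl-2, -0.83 ± 0.24 in mle and -0.83 ± 0.19 in roX1 roX2 mutants. The called members of this list in 21 and 20 libraries were 1 and 2 for msl-2 mutants (0.648% and 7.59% of all tested genes), 0 and 4 for mle mutants (1.98% and 8.95%), and 2 and 5 for roX1 roX2 mutants (1.93% and 7.55%), all lower. Beside the 0 edgeR calls in mle mutants in 21 libraries, 6 genes had an unadjusted p under 0.05.

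**Figure D4:**
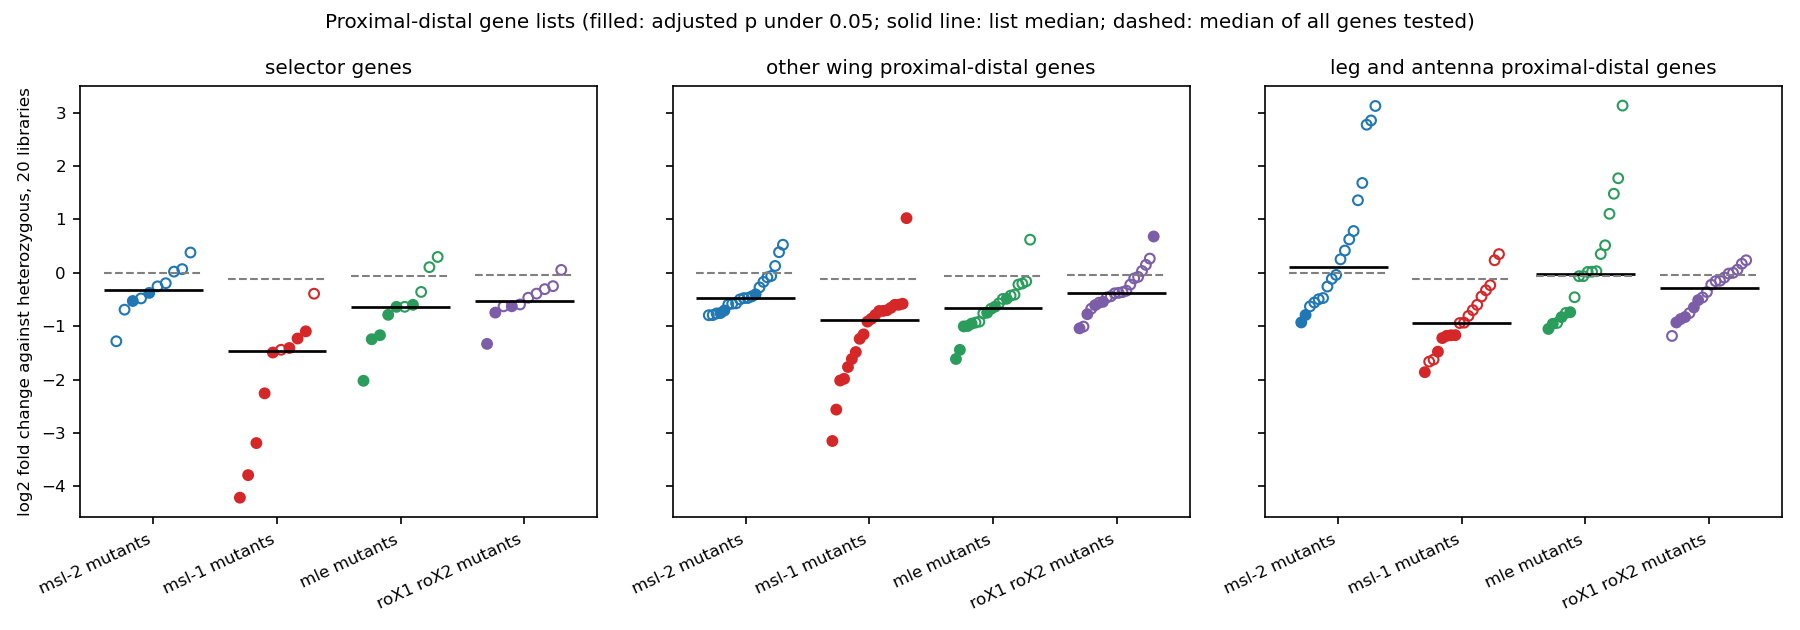
Changes (log2, mutant over heterozygous, 20 libraries) of the selector genes, the other wing axis genes and the leg and antenna axis genes, each point a gene, filled where the adjusted p was under 0.05. Solid lines are list medians and dashed lines the median of all tested genes. In msl-1 mutants the medians are -1.47 for the selector genes and -0.89 for the wing list.

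Several measures of stage and tissue moved with these results. Summed levels of 17 ecdysone response genes, which mark progress through the larval instar, were 972.5 to 1889 CPM in the 13 mutant libraries, against 1514 to 10670 CPM in the 8 heterozygous ones, with the lowest heterozygous value in msl-1 replicate 2. Of the 17, those called lower in 21 and 20 libraries numbered 2 and 4 in msl-2 mutants, where 0.648% and 7.59% of all tested genes were lower, and 9 and 8 in msl-1 mutants, where 25.4% and 12.7% were. They numbered 3 and 7 in mle mutants, where 1.98% and 8.95% of all tested genes were lower, and 3 and 6 in roX1 roX2 mutants, where 1.93% and 7.55% were. In msl-1 mutants 2 of the 17 were called higher in both sets, where 12.8% and 10.4% of all tested genes were. Eip78C, an early ecdysone target, was lower in msl-2 mutants by a log2 change of -2.27 ± 0.38 (adjusted p = 0.0033) in 21 libraries. By mutant group, the sum was 1178 to 1345 CPM in msl-1 mutants, with Dll at 6.65 to 9.98 CPM. It was 972.5 to 1889 CPM in msl-2 mutants, with Dll at 87.1 to 132 CPM. In mle mutants it was 1011 to 1365 CPM, with Dll at 55.3 to 68.9 CPM. In roX1 roX2 mutants it was 1216 to 1641 CPM, with Dll at 78.2 to 84.1 CPM. The part of stage in the result was not tested.

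**Figure D5:**
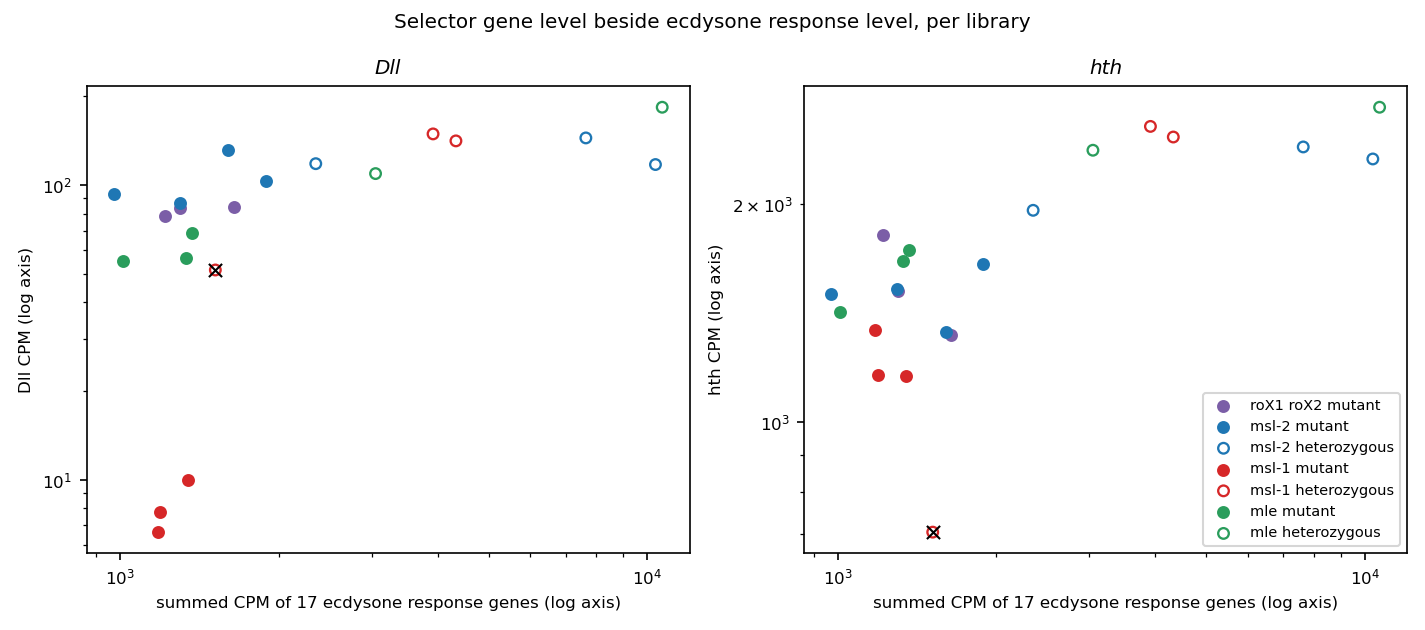
Dll (left) and hth (right) in CPM against the summed CPM of 17 ecdysone response genes, 1 point per library, log axes, mutants filled and heterozygous discs open, a cross on msl-1 heterozygous replicate 2. Mutant libraries span 972.5 to 1889 CPM on the x axis and heterozygous ones 1514 to 10670 CPM. Dll was at 6.65 to 9.98 CPM in msl-1 mutants, and the part of stage in its level was not tested.

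Markers of other tissues also moved with the msl-1 comparison. Of all tested genes, 12.7% were called lower in 20 libraries and 25.4% in 21, and 10.4% and 12.8% were called higher. Summed levels of 6 leg disc markers were 38.5 to 47.5 CPM in msl-1 mutants, against 81.5 to 178 CPM in msl-1 heterozygous discs (81.5 to 95.35 CPM without replicate 2). Of these markers, 1 of 5 tested was called lower in 20 libraries (3 of 6 in 21). Sp1, btd, C15, Lim1 and tio among them are also on the leg and antenna axis list, so the leg markers are no separate measure. 6 eye-antenna markers summed to 35.1 to 45.0 CPM, against 60.6 to 188 CPM (60.6 to 81.0 CPM without replicate 2), with 1 of 5 lower in 20 libraries and 2 of 6 in 21. 5 markers of neurons and glia summed to 62.7 to 82.2 CPM, against 128 to 470 CPM (128 to 224 CPM without replicate 2), with 3 of 5 lower in 20 libraries and 4 in 21. 4 tracheal markers were higher in sum, at 1262 to 2493 CPM, against 266 to 1129 CPM (1063 to 1129 CPM without replicate 2), with none called in 20 libraries, and 3 higher and 1 lower in 21. None of these markers was at 0 in either group. In msl-2 heterozygous discs the leg disc markers summed to 52.8 to 73.2 CPM, with Dll at 117 to 144 CPM. In msl-2 mutants they summed to 64.5 to 175 CPM, with Dll at 87.1 to 132 CPM, both highest in replicate 1. The part of these tissues in the results was not tested. In msl-2 discs, 6 fat body markers summed to 22.7 to 4810 CPM in mutants, against 20.5 to 64.1 CPM in heterozygous discs, and Sp1, a leg marker, reached 92.1 CPM in 1 mutant library with medians of 6.35 CPM in mutants and 4.15 CPM in heterozygous discs.

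Across the 20 libraries, Dll and al had a Pearson r of 0.95 (Spearman 0.953) between their log2 CPM. This and the other correlations describe libraries that share groups, depth and stage, and carry no p. Among the 10367 tested genes the patterns most like Dll by Pearson r were those of wit (r = 0.965), a BMP receptor, sca (r = 0.962), a secreted protein of sensory organ spacing, and pdm3 (r = 0.958), a POU factor. By Spearman these 3 were at 0.935, 0.792 and 0.791, below al. The nearest to al were wgn (r = 0.964), a TNF receptor, wit (r = 0.963) and klu (r = 0.957). nub was most like dve (r = 0.941, Spearman 0.687), Lsd-2 (r = 0.924, Spearman 0.809) and its fellow pouch factor rn (r = 0.923, Spearman 0.776). pdm2 was most like kn (r = 0.957), dve (r = 0.949) and Plc21C (r = 0.944). rn was nearest to Ac13E (r = 0.926), nub and AGO1 (r = 0.920). hth was nearest to CG15628 (r = 0.941) and Syp (r = 0.937), and tsh to ara (r = 0.911), an Iroquois factor of the body wall, CG1677 (r = 0.907) and shf (r = 0.901). The weak members had lower values: the highest r was 0.867 for B-H2, 0.862 for B-H1 and 0.787 for dac.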

How the data were processed

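Poly-A RNA of male wing discs was sequenced in 21 libraries in 7 groups, with a stranded kit per the labels' protocols. What the authors deposited is 1 table of counts, whole reads for each FlyBase gene, that they did not normalise. Per the submitters' processing notes, the tools were DESeq2 (1.18.1), featureCounts (Subread 1.6.1) and STAR (2.6.1b), next to MultiQC (1.6), FastQC (0.11.7), SAMtools (1.9) and deepTools (3.1.2), with BDGP6, or dm6, as genome. How the counting treated strand is not given in the sources used here. Positions come from an annotation of that build, which matched 17252 of 17558 genes.

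From the counts, edgeR 4.0.16 in R 4.3.3 fitted robust quasi-likelihood models of 7 group means, with TMM factors from genes of 2L, 2R, 3L and 3R and filterByExpr, which kept 11420 genes in 21 libraries and 10367 in 20. The common biological coefficient of variation was 0.362 and 0.210. Every adjusted p is edgeR's, adjusted by Benjamini-Hochberg over all genes tested, and genes were called at 0.05 or below. An SE is the fitted log2 change divided by the square root of edgeR's F. Levels in CPM use the same factors. The procedure was tested on simulated data. DESeq2 1.42.0, limma 3.58.1 quality weights, other scaling, no filter, a replicate block, other controls for roX1 roX2 mutants and omission of each library were tried as alternatives. The members and the gene lists were chosen with earlier results of these data known. The lists overlap, since vg and sd are both wing disc markers and wing axis genes. Likewise bi is both a wing disc marker and a leg and antenna axis gene. Named list genes are up to 3 called genes per list and comparison with the smallest adjusted p, and vn, Sp1 and the range of exd were named after their values were seen. For each member the 3 genes with the highest r were named, apart from an ID without a symbol and the neighbours of dac, B-H1 and B-H2. The symbols wg and ap, among others on the lists, were not matched and are not analysed here. No sequences were used.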

Additional observations from a re-analysis of the deposited data

Results flagged for a closer look

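The results below stand out because the change in one mutant differed from that in another by a test of the difference itself (edgeR, 21 libraries). Against msl-2 mutants, the change in msl-1 mutants was lower by a log2 difference of -3.53 for Dll, -2.96 for al, -2.74 for dac, -2.59 for B-H1, -2.22 for pdm2 and -1.17 for rn. In 20 libraries the differences were -3.96, -3.31, -1.87, -2.50, -2.06 and -1.48 in the same order, all past the threshold. Against mle mutants, the change of Dll in msl-1 mutants was lower by a log2 difference of -2.53, and by -2.97 in 20 libraries. The dac difference missed the threshold without msl-1 mutant replicate 2 in 21 libraries (adjusted p = 0.0506), as did that of B-H1 (adjusted p = 0.0633). In 20 libraries the dac difference was called in 16 and that of B-H1 in 15 of the 20 fits without a further library, and that of pdm2 missed without msl-1 heterozygous replicate 3 (adjusted p = 0.0948). The rn difference was called in 13 of the 21 fits that left out a library, and the Dll difference against mle mutants in 14, with an adjusted p of up to 0.0764 for rn and 0.215 for Dll. Dixon's criterion flagged no library in the 10 sets of 4 msl-2 mutant values. With 4 values it detects only extreme departures, and those sets hold no msl-1 or mle library.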

How the results depend on the processing

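The calls of Dll, al, B-H1, pdm2, rn and dac in msl-1 mutants and of al in mle and roX1 roX2 mutants held in each of the 21 fits that left out a library. The number of members called moved under other settings, and the cause was not tested. In msl-2 mutants it was 0, and 2 in 20 libraries, with the groups compared only and with DESeq2 in 20 libraries, 5 with quality weights and 1 with the replicate block in 20 libraries. In mle mutants it was 2, and 6 in 20 libraries, 1 without the filter, and 5 with quality weights, the block in 20 libraries or DESeq2 in 20. In roX1 roX2 mutants it was 1, and 3 in 20 libraries, with the block there and with DESeq2 there, 2 with DESeq2 in 21, 4 with quality weights, 0 with msl-2 heterozygous discs alone as control and 2 with msl-1 heterozygous discs alone. For msl-1 against mle it was 1, and 3 with DESeq2 in 21 and in 20 libraries, 0 without the filter, with the groups compared only and with the replicate block, and 5 with quality weights. For mle against msl-2 it was 0, and 1 in 20 libraries, with DESeq2 in 21 and in 20, with the groups compared only, with quality weights and with the block in 20. With each library left out in 21 and in 20 libraries, the members called ran over 0 to 3 and 0 to 3 in msl-2, 6 to 8 and 7 to 10 in msl-1, 1 to 6 and 2 to 6 in mle and 1 to 3 and 3 to 3 in roX1 roX2 mutants. They ran over 3 to 7 and 4 to 7 for msl-1 against msl-2, 0 to 4 and 1 to 4 for msl-1 against mle, and 0 to 0 and 0 to 2 for mle against msl-2. No called change turned its sign. Log2 changes near 0 that turned were nub in msl-2 mutants (0.024 in 20 libraries, 0.028 with TMM on all genes, 0.061 with DESeq2, 0.075 with the groups compared only, 0.071 with DESeq2 in 20 libraries, 0.0065 with the replicate block in 20 libraries, and -0.10 to 0.10 with libraries left out), rn there (-0.040 without the filter, -0.066 to 0.18 with libraries left out), tsh in msl-1 mutants (0.014 with TMM on all genes, 0.14 without the filter, 0.048 with the replicate block, -0.49 to 0.32) and tsh in roX1 roX2 mutants (0.30 with msl-1 heterozygous discs alone). With libraries left out, dac in mle mutants ran over -0.19 to 0.50, B-H1 there over -0.18 to 0.39 and nub in roX1 roX2 mutants over -0.048 to 0.27. Scaling moved the median of all genes by over 0.1 with TMM on all genes in mle mutants (0.122) and with DESeq2 in msl-1 mutants (-0.122). Among all genes, edgeR called 138 in 21 and 1105 in 20 libraries for msl-2 mutants, 4360 and 2393 for msl-1, 384 and 1349 for mle, and 609 and 1489 for roX1 roX2 mutants. Where an omission left 1 library in a group, that library was assumed to vary like the other groups. Replicate numbers were not used to pair the libraries in the main fit. Same-numbered libraries correlated at -0.281 to 0.0932 in 21 libraries and -0.244 to 0.184 in 20 in their deviations from group means. In groups this small the deviations constrain each other, so these values cannot exclude pairing. Total counts limit the weak members most, since B-H1 had 7 counts in msl-1 mutants.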
